A study of Mus musculus with 9 samples.

Results

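The NRF2 antioxidant genes are a hand-chosen set of 10 mouse genes: the transcription factor gene Nfe2l2 (NRF2), its inhibitor Keap1, and Gclc, Gclm, Txnrd1, Srxn1, Prdx1, Nqo1, Hmox1 and G6pdx. They were picked by symbol and not by a threshold on any measured value, but with earlier results of these data known. The table held 16876 genes, and all 10 members passed the filter on low counts that left 12212 genes for testing. Nqo1 passed it only through the cells given TGF-β1 alone, the group with its highest mean. Their mRNA was followed in natural killer (NK) cells grown from bone marrow, through a short exposure to TGF-β1 with and without the Smad3 inhibitor SIS3.

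KEAP1 is the adaptor through which the CUL3 ubiquitin ligase destroys NRF2. When reactive cysteines of KEAP1 are modified by oxidants or electrophiles, NRF2 escapes, enters the nucleus, pairs with a small MAF protein and binds antioxidant response elements near genes that make glutathione, reduce thioredoxin, detoxify quinones and heme and supply NADPH. Most control of NRF2 is therefore on the protein, which these data do not measure. In dividing lymphocytes, glutathione and thioredoxin also serve as electron donors for the synthesis of deoxyribonucleotides.

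The 9 libraries formed 3 groups of 3, all of polyadenylated RNA from NK cells of C57BL/6 mice. SIS3 + TGF-β1 cells were given SIS3 at 10 µM for 3 h and then TGF-β1 at 5 ng/mL for 3 h, TGF-β1 cells were given TGF-β1 at 5 ng/mL for 3 h without SIS3, and Ctrl cells received neither. Cultures of every group held IL-15 at 50 ng/mL throughout and β-mercaptoethanol, a thiol reductant. In the first 4 days SCF (30 ng/mL), Flt3L (10 ng/mL) and IL-7 (1 ng/mL) were present as well, and in the following week IL-2 (20 ng/mL) took their place. Titles of the SIS3 + TGF-β1 samples name SIS3 alone, while their treatment text and the series design name TGF-β1 too. No group had SIS3 without TGF-β1, and whether the other groups received the solvent of SIS3 is not stated, so an effect of SIS3 on Smad3 signalling and an effect of the compound itself cannot be told apart. Whether the replicates were separate mice or cultures is not stated, and the p-values therefore measure only the spread between these libraries.

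Libraries held 15714973 to 16718673 expected counts (reads assigned to genes by estimation). Levels are given below as CPM, counts scaled to a common library total with TMM factors, and changes as log2 differences with standard errors and with p-values adjusted over all 12212 genes. The TGF-β1 target Pmepa1 stood at 114.8 to 127.1 CPM in SIS3 + TGF-β1 cells and 133.1 to 142.6 CPM in TGF-β1 cells, against 0.426 to 0.801 CPM in Ctrl cells. Its mRNA was near absent from untreated cells alone. Pmepa1 fell by little after SIS3 (-0.18 ± 0.05, adjusted p 0.00564, edgeR), a call lost without scaling factors (0.111). Smad3 averaged 5.61 CPM in SIS3 + TGF-β1 cells, 9.75 CPM in TGF-β1 cells and 4.30 CPM in Ctrl cells. It rose with TGF-β1 (1.18 ± 0.15, adjusted p 1.67e-05) and fell after SIS3 (-0.80 ± 0.15, adjusted p 0.000488). The stress factor gene Ddit3 stood at 117.3 to 132.6 CPM in SIS3 + TGF-β1 cells, against 16.8 to 21 CPM in TGF-β1 cells and 23.2 to 25.6 CPM in Ctrl cells. All 13 NK cell markers examined were detected, and their summed level was 17204.5 to 17435.8 CPM in SIS3 + TGF-β1 cells, 15843.2 to 17270.1 CPM in TGF-β1 cells and 20700.0 to 21813.2 CPM in Ctrl cells. Replicate 3 of the SIS3 + TGF-β1 group and replicate 3 of the TGF-β1 group stood apart from the other libraries of their groups: the chi-square of their counts per gene, a measure of the difference relative to counting noise, was 4.18 to 5.14 in pairs with either of them and 1.62 to 3.07 in the other pairs of replicates. SIS3 + TGF-β1 replicate 3 had the highest macrophage marker sum of the SIS3 + TGF-β1 group and TGF-β1 replicate 3 the lowest of the TGF-β1 group, and TGF-β1 replicate 3 also held the fewest detected genes (14193, against 14448 to 14862 in the other 8 libraries). Fits without both are given after the members.

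The antioxidant response element was looked for in the promoter windows of the members, from 250 bases before to 50 bases after the annotated start (RefSeq, GRCm38.p6). The core searched was TGACNNNGC, on both strands. Of the 10 members, 8 had a window, and 6 of these 8 held a match, while 12.4% of all 32851 promoter windows and 14% of 27025 genes did. A longer core, the same letters followed by A, was found in 1 member, Txnrd1, against 3.04% of all windows. The related AP-1 element TGACTCA, searched in the same way, was found in 2 members, Srxn1 and Prdx1, against 5.20% of windows. A match is a description of the sequence and not a bound site.

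The matches, read on the strand that carries them, were TGACTCCGC in Nfe2l2 starting 240 bases before the start, TGACGGTGC in Gclm at 134 bases before, TGACAAAGC in the second of the Txnrd1 windows at 92 bases before, TGACTCAGC in Prdx1 at 133 bases before and TGACTGAGC in G6pdx at 57 bases before. Srxn1 held TGACCTAGC at 28 bases after the start. Positions are those of the first base of the match along the strand of the gene, also where the letters are read on the opposite strand. The Prdx1 match overlaps an AP-1 element, and the others do not. No match lay in the windows of Keap1 and Nqo1, which says only that these letters are absent from those stretches. Windows are printed for Gclm, Srxn1 and G6pdx, chosen with their values known, because they hold a match and show 3 different courses: Gclm rose with TGF-β1, Srxn1 fell with TGF-β1 and rose with SIS3, and G6pdx fell with SIS3. Each is written 5′ to 3′ on the strand of its gene, with the match in capitals, and in all 3 the match is on the opposite strand, so that the capitals show its reverse complement. The Gclm window is chr3:122245307-122245606 (+), the Srxn1 window chr2:152105274-152105573 (+) and the G6pdx window chrX:74428831-74429130 (-).
Gclm: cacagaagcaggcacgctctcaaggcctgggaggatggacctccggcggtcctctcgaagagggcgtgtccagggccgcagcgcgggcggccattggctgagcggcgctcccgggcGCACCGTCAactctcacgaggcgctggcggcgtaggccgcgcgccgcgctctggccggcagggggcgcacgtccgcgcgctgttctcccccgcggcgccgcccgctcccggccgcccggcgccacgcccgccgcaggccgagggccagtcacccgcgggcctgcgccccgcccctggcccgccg
Srxn1: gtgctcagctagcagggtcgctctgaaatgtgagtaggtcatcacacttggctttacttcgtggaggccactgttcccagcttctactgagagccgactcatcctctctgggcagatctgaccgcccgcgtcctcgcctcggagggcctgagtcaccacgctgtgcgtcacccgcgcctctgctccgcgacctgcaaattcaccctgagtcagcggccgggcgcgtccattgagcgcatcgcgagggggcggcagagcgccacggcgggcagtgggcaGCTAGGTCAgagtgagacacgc
G6pdx: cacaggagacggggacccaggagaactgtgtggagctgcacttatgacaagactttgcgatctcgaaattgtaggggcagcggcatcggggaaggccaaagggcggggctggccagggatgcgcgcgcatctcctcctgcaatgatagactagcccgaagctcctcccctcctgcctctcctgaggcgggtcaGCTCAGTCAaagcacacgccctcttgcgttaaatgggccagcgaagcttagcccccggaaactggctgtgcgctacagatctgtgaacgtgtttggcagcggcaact

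After SIS3, set against TGF-β1 alone, G6pdx and Keap1 fell, Srxn1 rose, and the other 7 members did not pass the test. These 3 of 10 members stand against 41.8% of all tested genes called in that comparison (21.2% higher, 20.6% lower). TGF-β1 alone, set against Ctrl, raised Gclm and lowered Srxn1, which makes 2 of 10 members against 34.3% of all genes (17.9% higher, 16.4% lower). SIS3 + TGF-β1 against Ctrl gave 5 of 10, with Gclm and Nfe2l2 higher and G6pdx, Txnrd1 and Keap1 lower, against 53.9% of all genes (29.0% higher, 24.9% lower). In none of the 3 comparisons was the share of members called above that of all genes. The comparison of SIS3 + TGF-β1 with TGF-β1 and that of TGF-β1 with Ctrl share the TGF-β1 libraries, so a chance deviation there moves both, in opposite directions.

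The sizes were modest too. The median absolute log2 change of the members was 0.15 for SIS3 + TGF-β1 against TGF-β1 (0.18 over all genes), 0.15 for TGF-β1 against Ctrl (0.16) and 0.24 for SIS3 + TGF-β1 against Ctrl (0.24). Signed medians lay near 0, at -0.06, -0.04 and 0.01 in the same order, against 0.01, 0.00 and 0.02 over all genes. Libraries of the compared groups did not overlap for 3 members in SIS3 + TGF-β1 against TGF-β1 (51.4% of all genes), 4 in TGF-β1 against Ctrl (45.0%) and 6 in SIS3 + TGF-β1 against Ctrl (61.1%). Called members lay on both sides of 0 in each comparison.

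**Figure D1:**
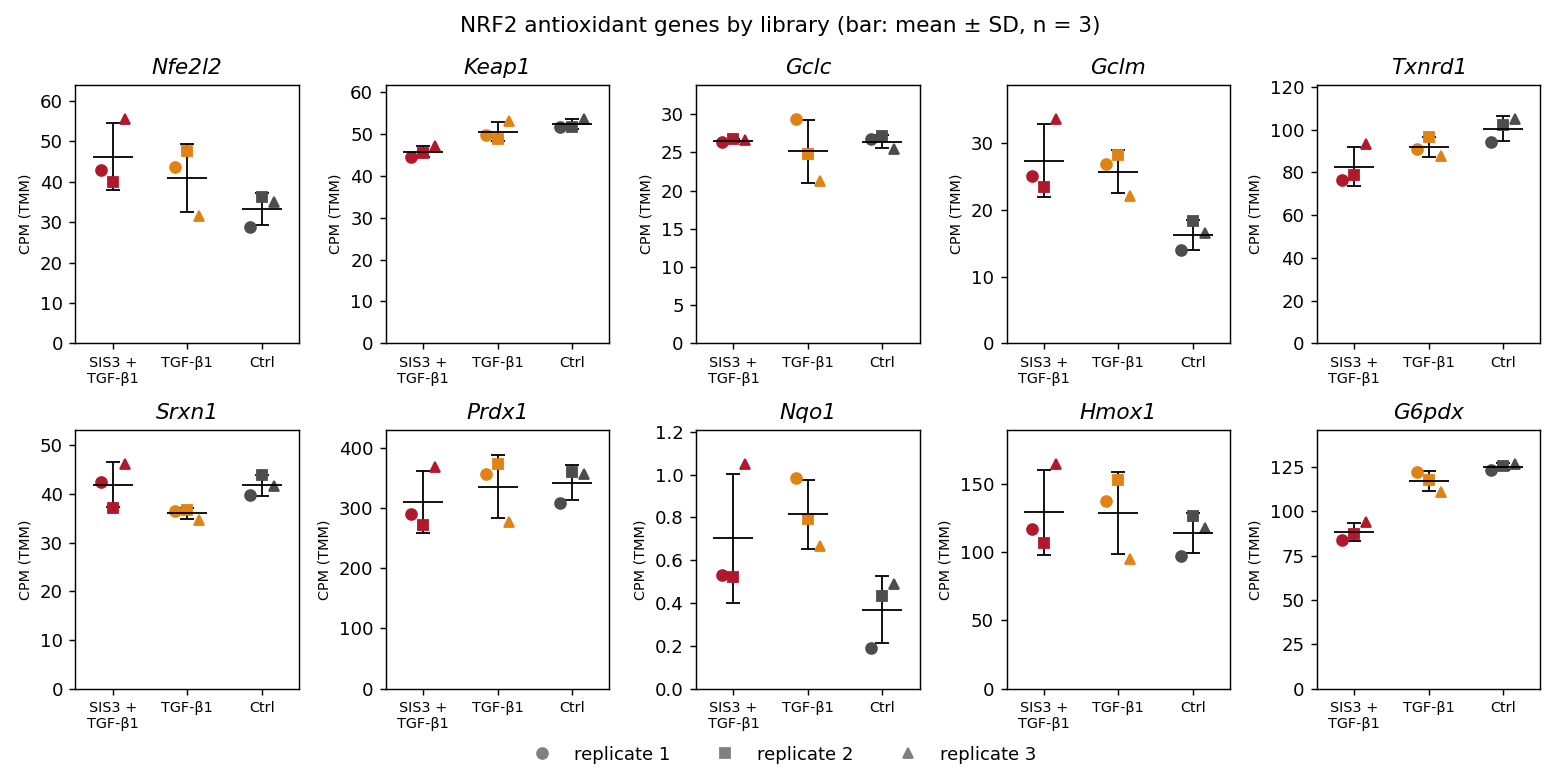
Level of each of the 10 members in each library (y axis, CPM after TMM scaling, starting at 0); points are libraries with the shape giving the replicate, and the black bars are the mean ± SD of 3 libraries. G6pdx lies lower in all 3 SIS3 + TGF-β1 libraries (84.1 to 94.2 CPM) than in any other library, and Gclm lies higher in all 6 treated libraries (22 to 33.6 CPM) than in Ctrl (13.9 to 18.3 CPM).

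Nfe2l2 encodes NRF2 itself (Entrez 18024, chr2:75675513-75704663; positions here and below are those of GRCm38). It had 43.0, 40.0 and 55.6 CPM in SIS3 + TGF-β1 cells, 43.6, 47.5 and 31.5 CPM in TGF-β1 cells and 28.8, 36.2 and 34.9 CPM in Ctrl cells. All SIS3 + TGF-β1 libraries lay above all Ctrl libraries, while TGF-β1 replicate 3 fell inside the Ctrl range. SIS3 + TGF-β1 cells averaged 46.2 ± 8.29 CPM and Ctrl cells 33.3 ± 3.95 CPM (SD, n = 3 each), a log2 change of 0.47 ± 0.14 with an adjusted p of 0.00843 (edgeR). That call missed the threshold without Ctrl replicate 1 (adjusted p 0.0508). TGF-β1 against Ctrl gave 0.30 ± 0.14 (adjusted p 0.114), and SIS3 + TGF-β1 against TGF-β1 gave 0.17 ± 0.13 (adjusted p 0.326), with an interval of -0.11 to 0.46. This last value was 0.02 without SIS3 + TGF-β1 replicate 3 and 0.02 without TGF-β1 replicate 3, and it turned to -0.13 ± 0.08 (adjusted p 0.204) with replicate 3 of both treated groups left out. The change with TGF-β1 alone passed the test without TGF-β1 replicate 3 (log2 0.45, adjusted p 0.00566) and with no filter on low counts (adjusted p 0.0383).

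Keap1, which holds NRF2 in the cytoplasm and hands it to the proteasome (Entrez 50868, chr9:21229730-21239332), was the steadiest member. It had 44.5, 45.4 and 47.1 CPM in SIS3 + TGF-β1 cells, 49.6, 48.8 and 53.1 CPM in TGF-β1 cells and 51.5, 51.7 and 53.6 CPM in Ctrl cells. Every SIS3 + TGF-β1 library lay below every library of the other groups. The log2 change was -0.19 ± 0.05 against Ctrl (adjusted p 0.00328) and -0.14 ± 0.05 against TGF-β1 (adjusted p 0.0288). The second of these calls was lost without scaling factors (log2 -0.06, adjusted p 0.359), in DESeq2 (adjusted p 0.0739), and without SIS3 + TGF-β1 replicate 1 (0.105), SIS3 + TGF-β1 replicate 2 (0.0716) or TGF-β1 replicate 3 (0.121). TGF-β1 against Ctrl gave -0.05 ± 0.05 (adjusted p 0.46).

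Glutathione is made by glutamate-cysteine ligase, whose catalytic subunit is encoded by Gclc and whose regulatory subunit, which makes the enzyme less sensitive to feedback by glutathione, is encoded by Gclm. The mRNAs of these subunits parted. Gclm (Entrez 14630, chr3:122245487-122267215) had 25.0, 23.4 and 33.6 CPM in SIS3 + TGF-β1 cells, 26.8, 28.2 and 22 CPM in TGF-β1 cells and 13.9, 18.3 and 16.5 CPM in Ctrl cells. No treated library overlapped a Ctrl library. Gclm rose 1.58-fold in TGF-β1 cells against Ctrl cells (log2 0.66 ± 0.14, adjusted p 0.00118) and 1.68-fold in SIS3 + TGF-β1 cells against Ctrl cells (0.75 ± 0.13, adjusted p 0.000197). Both calls held in each of the 18 alternatives set out for them. SIS3 + TGF-β1 and TGF-β1 cells could not be separated (0.09 ± 0.13, interval -0.18 to 0.36, adjusted p 0.616).

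Gclc (Entrez 14629, chr9:77754535-77794489) did not pass the test in any comparison. It had 26.3, 26.7 and 26.6 CPM in SIS3 + TGF-β1 cells, 29.4, 24.8 and 21.2 CPM in TGF-β1 cells and 26.7, 27.1 and 25.4 CPM in Ctrl cells. The TGF-β1 libraries spread on both sides of the others. Changes were 0.07 ± 0.09 for SIS3 + TGF-β1 against TGF-β1, -0.07 ± 0.09 for TGF-β1 against Ctrl and 0.01 ± 0.09 for SIS3 + TGF-β1 against Ctrl, the last with an interval of -0.18 to 0.19.

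Thioredoxin passes electrons from NADPH to peroxiredoxins and other proteins. Txnrd1, the cytosolic thioredoxin reductase (Entrez 50493, chr10:82833951-82897724), had 76.3, 78.6 and 93.5 CPM in SIS3 + TGF-β1 cells, 91.2, 96.8 and 87.7 CPM in TGF-β1 cells and 94.1, 102.4 and 105.2 CPM in Ctrl cells. SIS3 + TGF-β1 libraries lay below Ctrl libraries, replicate 3 by little, and TGF-β1 libraries overlapped both groups. The fall in SIS3 + TGF-β1 cells against Ctrl cells was -0.28 ± 0.07 (adjusted p 0.00229). SIS3 + TGF-β1 against TGF-β1 gave -0.15 ± 0.07 (adjusted p 0.0855), which passed without SIS3 + TGF-β1 replicate 3 (log2 -0.25, adjusted p 0.00236) and with no filter on low counts (adjusted p 0.0423). TGF-β1 against Ctrl gave -0.13 ± 0.07 (adjusted p 0.155).

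Srxn1, sulfiredoxin, which repairs overoxidised peroxiredoxins (Entrez 76650, chr2:152105524-152111376), was the one member called in opposite directions. It had 42.5, 37.1 and 46.2 CPM in SIS3 + TGF-β1 cells, 36.6, 36.7 and 34.7 CPM in TGF-β1 cells and 39.7, 43.9 and 41.7 CPM in Ctrl cells. TGF-β1 libraries were the lowest, and the other groups overlapped. Srxn1 rose in SIS3 + TGF-β1 cells against TGF-β1 cells (0.22 ± 0.07, adjusted p 0.0219) and fell in TGF-β1 cells against Ctrl cells (-0.22 ± 0.07, adjusted p 0.0293), both through the same TGF-β1 libraries. SIS3 + TGF-β1 against Ctrl gave 0.00 ± 0.07, with an interval of -0.15 to 0.15. The call after SIS3 was lost without SIS3 + TGF-β1 replicate 1 (adjusted p 0.0656), SIS3 + TGF-β1 replicate 3 (0.115) or TGF-β1 replicate 3 (0.0604). The call for TGF-β1 against Ctrl was lost without TGF-β1 replicate 1 (0.0561), 2 (0.0505) or 3 (0.073) and without Ctrl replicate 2 (0.118) or 3 (0.0666).

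Prdx1, a cytosolic peroxiredoxin that reduces hydrogen peroxide (Entrez 18477, chr4:116685599-116700000), was the most abundant member per length. It had 289.3, 271.8 and 368.0 CPM in SIS3 + TGF-β1 cells, 356.1, 373.1 and 275.8 CPM in TGF-β1 cells and 307.8, 360.3 and 356.3 CPM in Ctrl cells. The groups overlapped, with SIS3 + TGF-β1 replicate 3 high and TGF-β1 replicate 3 low in their groups. SIS3 + TGF-β1 against TGF-β1 gave -0.11 ± 0.11 (adjusted p 0.432), TGF-β1 against Ctrl -0.03 ± 0.11 (0.879) and SIS3 + TGF-β1 against Ctrl -0.14 ± 0.11 (0.292). The first of these passed without SIS3 + TGF-β1 replicate 3 (log2 -0.26, adjusted p 0.0445) or TGF-β1 replicate 3 (-0.24, 0.0498), and the last without SIS3 + TGF-β1 replicate 3 (-0.28, 0.0208).

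Nqo1, a quinone reductase and a widely used readout of NRF2 activity, was barely expressed (Entrez 18104, chr8:107388225-107403205). Its expected counts were 9, 9 and 18 in SIS3 + TGF-β1 cells, 16, 13 and 10 in TGF-β1 cells and 3, 7 and 8 in Ctrl cells, which is 0.532, 0.523 and 1.05 CPM in SIS3 + TGF-β1 cells, 0.985, 0.793 and 0.666 CPM in TGF-β1 cells and 0.189, 0.431 and 0.487 CPM in Ctrl cells. Treated libraries all lay above Ctrl libraries, by few counts. TGF-β1 against Ctrl gave 1.12 ± 0.44 with an interval of 0.19 to 2.06 (adjusted p 0.0596), and SIS3 + TGF-β1 against Ctrl gave 0.90 ± 0.45 with an interval of -0.04 to 1.85 (adjusted p 0.0996). SIS3 + TGF-β1 against TGF-β1 gave -0.22 ± 0.38 (adjusted p 0.68). A difference between SIS3 + TGF-β1 and TGF-β1 cells was not detectable at this depth, with an interval of -1.03 to 0.59. TGF-β1 against Ctrl passed in limma voom (adjusted p 0.0474) and without SIS3 + TGF-β1 replicate 3 (0.0457). Of the groups, only TGF-β1 reached the minimum count of 10 in every library, so Nqo1 passed the filter only through that group. Its passes against Ctrl are therefore no support for a rise with TGF-β1.

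Hmox1, heme oxygenase, which breaks heme down and is repressed by BACH1 as well as activated by NRF2 (Entrez 15368, chr8:75093618-75100593), had 116.8, 106.4 and 164.8 CPM in SIS3 + TGF-β1 cells, 137.8, 153.1 and 95.2 CPM in TGF-β1 cells and 97.5, 126.3 and 117.8 CPM in Ctrl cells. The ranges of all 3 groups overlapped, with the widest spread in the treated groups. Changes were 0.00 ± 0.16 for SIS3 + TGF-β1 against TGF-β1 (interval -0.33 to 0.34, adjusted p 0.986), 0.18 ± 0.16 for TGF-β1 against Ctrl (-0.16 to 0.52, 0.425) and 0.18 ± 0.16 for SIS3 + TGF-β1 against Ctrl (-0.15 to 0.52, 0.352). Without TGF-β1 replicate 3 the change with TGF-β1 alone passed the test, at 0.35 ± 0.13 (adjusted p 0.0495).

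G6pdx encodes glucose-6-phosphate dehydrogenase, the entry enzyme of the pentose phosphate pathway and a main source of the NADPH that glutathione and thioredoxin reductases consume (Entrez 14381, chrX:74409483-74428880). It had 84.1, 87.5 and 94.2 CPM in SIS3 + TGF-β1 cells, 122.4, 117.7 and 111.2 CPM in TGF-β1 cells and 123.5, 125.7 and 126.9 CPM in Ctrl cells. The SIS3 + TGF-β1 libraries stood clear of both other groups, and TGF-β1 libraries lay just below Ctrl libraries without overlap. G6pdx averaged 88.6 ± 5.15 CPM in SIS3 + TGF-β1 cells and 117.1 ± 5.63 CPM in TGF-β1 cells (SD, n = 3 each), a fold of 0.756 (log2 -0.40 ± 0.05, adjusted p 5.64e-06). Against Ctrl cells, at 125.3 ± 1.7 CPM, the fold in SIS3 + TGF-β1 cells was 0.707 (log2 -0.50 ± 0.05, adjusted p 1.98e-07). Both calls held in each of the 18 alternatives. TGF-β1 against Ctrl gave -0.10 ± 0.05 (adjusted p 0.115) and passed with upper-quartile scaling (adjusted p 0.0286). G6pdx has a near-identical retrogene copy, G6pd2, which was not analysed here and with which the authors' counting could have shared reads. The expected counts of G6pdx were whole numbers in all 9 libraries (1423 to 2085), and sharing of reads was not tested.

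**Figure D2:**
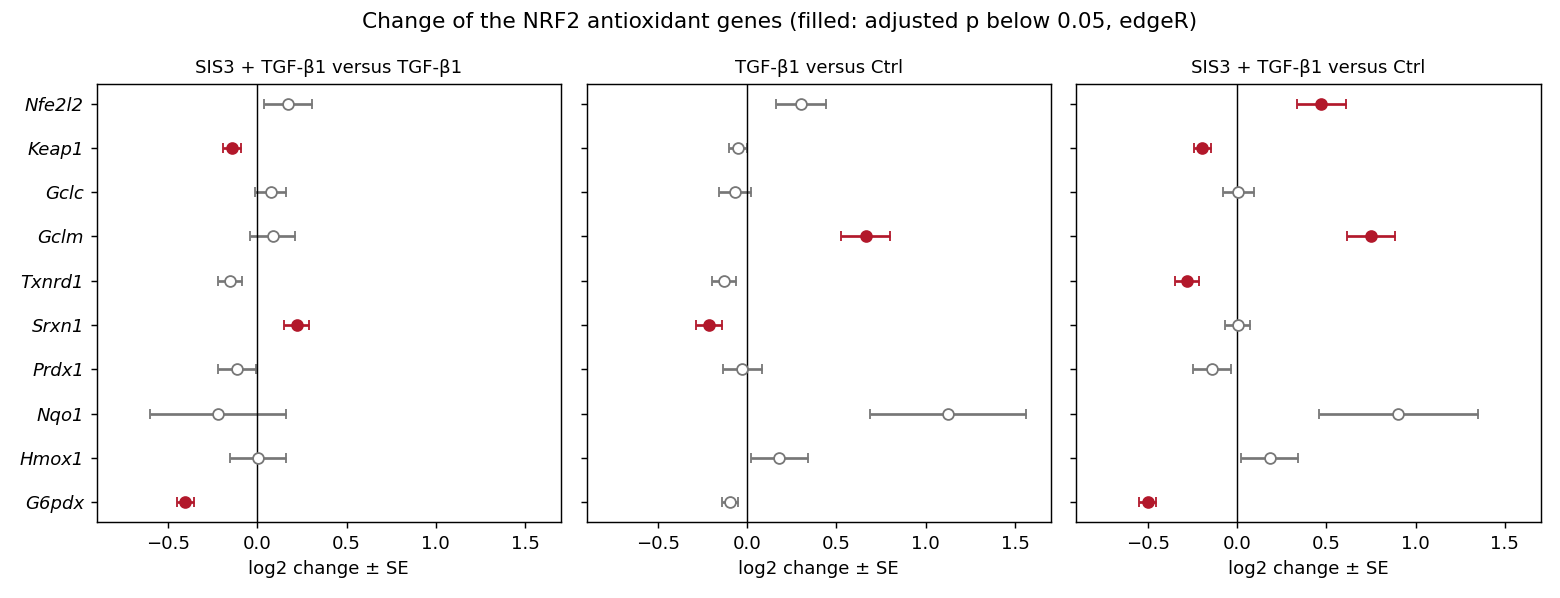
Log2 change ± SE of each member (x axis) in the 3 comparisons, with genes down the page; filled points passed an adjusted p of 0.05 (edgeR). G6pdx is lowest in both comparisons with SIS3 + TGF-β1 on top (-0.40 and -0.50), Gclm is filled on the higher side in both comparisons with Ctrl (0.66 and 0.75), and Nqo1 has the widest bars.

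Set per kilobase of exon, so that genes can be compared, the members spanned a wide range in Ctrl cells, in CPM per kilobase: Prdx1 averaged 134 ± 11.5, Hmox1 72.6 ± 9.43, G6pdx 47.3 ± 0.65, Txnrd1 24.7 ± 1.42, Srxn1 14.9 ± 0.747, Nfe2l2 13.5 ± 1.60, Keap1 11.6 ± 0.258, Gclc 7.71 ± 0.26, Gclm 2.90 ± 0.396 and Nqo1 0.238 ± 0.102 (SD, n = 3 each). Ctrl libraries overlapped between Srxn1 and Nfe2l2 and between Nfe2l2 and Keap1, and the other neighbours in that order did not overlap. Prdx1 and Hmox1 kept the first places and Gclm and Nqo1 the last in the means of all 3 groups. The regulatory subunit mRNA stayed below the catalytic one in every library. In SIS3 + TGF-β1 cells Gclm averaged 4.89 ± 0.982 and Gclc 7.75 ± 0.0608 CPM per kilobase, and in TGF-β1 cells Gclm averaged 4.59 ± 0.582 and Gclc 7.34 ± 1.20 CPM per kilobase.

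Replicates of the same group differed more for some members than for others. The within-group SD of log2 CPM was 0.30 for Hmox1, larger than in 93.6% of tested genes, 0.27 for Nqo1 (91.2%), 0.25 for Nfe2l2 (88.7%), 0.22 for Gclm (85.5%) and 0.20 for Prdx1 (82.8%). It was 0.06 for G6pdx (30.3%) and 0.05 for Keap1 (14.9%). Gclc, Txnrd1 and Srxn1 lay between 0.10 and 0.14.

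In the treated groups, the spread of the variable members ran with the content of macrophage and monocyte markers. These markers, of which 13 of 14 were tested and Lyz2 made 51.5% of the sum, totalled 1106.9, 1027.8 and 1740.6 CPM in SIS3 + TGF-β1 libraries, 1183.0, 1445.6 and 913.2 CPM in TGF-β1 libraries and 1239.7, 1516.6 and 1651.8 CPM in Ctrl libraries. None of the 14 was at 0 in every library. Nfe2l2, Gclm, Srxn1, Prdx1, Nqo1 and Hmox1, 6 of 10 members, were lowest in the same library as this sum in all 3 groups, as were 6.14% of tested genes. Apart from Nqo1, these had the full order of the sum in both treated groups (5 of 10 members, 4.99% of genes), and 9 of 10 members were highest in SIS3 + TGF-β1 replicate 3 among the libraries of its group (31.4% of genes). In the Ctrl group Nfe2l2, Gclm, Srxn1, Prdx1 and Hmox1 were highest in replicate 2 and not in replicate 3, where the sum was highest. Keap1, Txnrd1, Nqo1 and G6pdx had the full order in the Ctrl group, but not in both treated groups. No member had the full order in all 3 groups. In bulk RNA, fewer cells of a type and less RNA per cell cannot be told apart. Of the markers, 1 rose and 0 fell in SIS3 + TGF-β1 against TGF-β1, 0 rose and 3 fell in TGF-β1 against Ctrl, and 1 rose and 3 fell in SIS3 + TGF-β1 against Ctrl. Dendritic cell markers, led by Cd74 with 73.5% of their sum, totalled 400.7 to 708.6 CPM in SIS3 + TGF-β1 libraries, 359.8 to 573.3 CPM in TGF-β1 libraries and 452 to 626.8 CPM in Ctrl libraries. TGF-β1 replicate 3 was also low in some markers of other cells, of which Prss34, Gata2 and Mpo were chosen after their values were seen. The basophil protease Prss34 had 34.2, 21 and 3.46 CPM in TGF-β1 libraries, against 26.6 to 38.2 CPM in Ctrl libraries, and Gata2 had 7.57, 5.25 and 0.466 CPM in TGF-β1 libraries, against 4.31 to 8.03 CPM in Ctrl libraries. Summed mast cell and basophil markers, mostly Kit and Mcpt8, did not show this, at 450.8 to 524.5 CPM in SIS3 + TGF-β1 libraries, 479.1 to 529 CPM in TGF-β1 libraries and 489.1 to 516.6 CPM in Ctrl libraries. T cell markers summed to 22.4, 18.4 and 8.05 CPM in TGF-β1 libraries, and Mpo, a myeloid granule gene, had 4.06, 2.68 and 0.266 CPM there. The neutrophil list that holds Mpo did not show this, with sums of 247.7, 234.1 and 247.3 CPM in TGF-β1 libraries. Ctsg made 98% of that list's sum over all libraries and had 242.1, 230.4 and 246.1 CPM in TGF-β1 libraries. The part of these other cell types in the members' values was not tested.

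**Figure D3:**
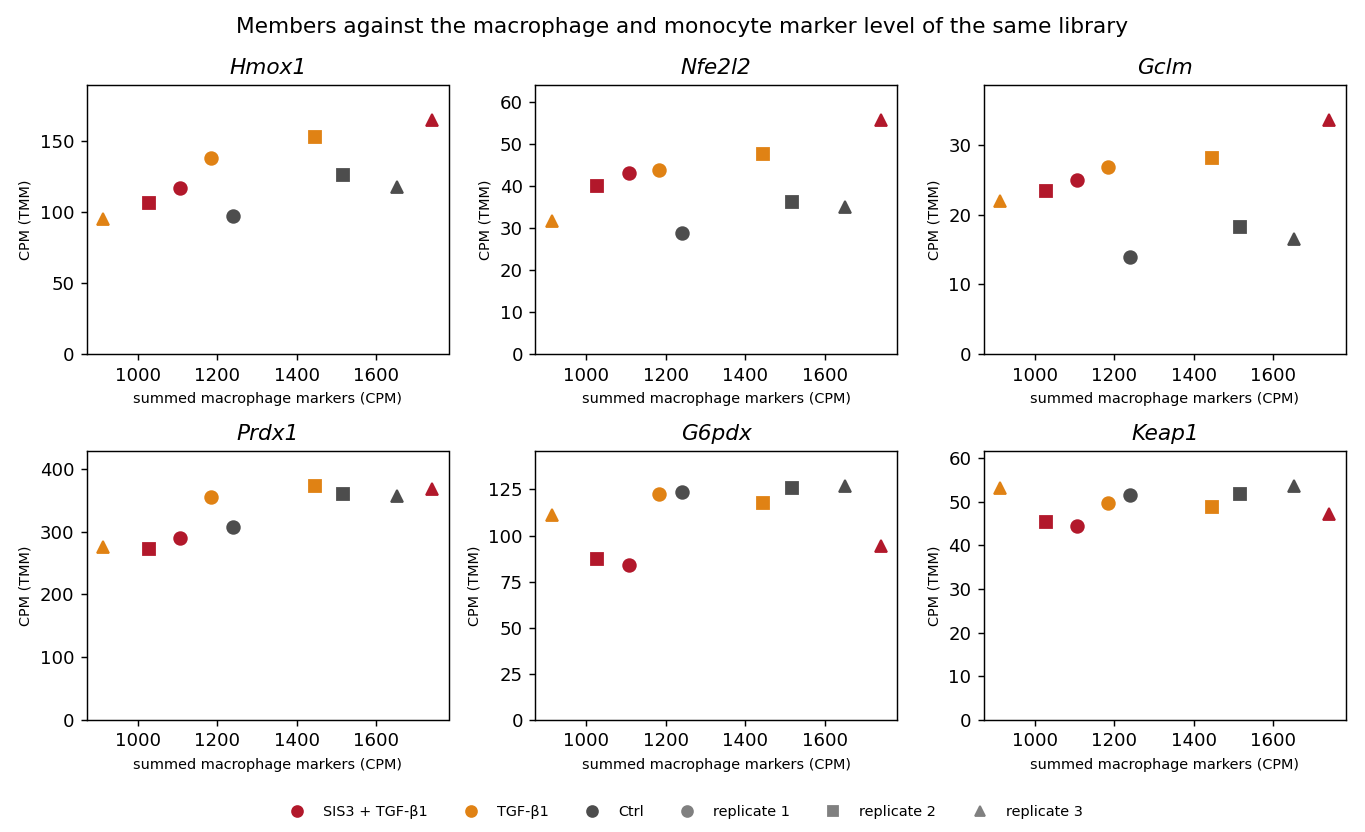
Level of 6 members (y axis, CPM) against the summed macrophage and monocyte markers of the same library (x axis, CPM); colour gives the group and shape the replicate. Within each treated group Hmox1, Nfe2l2, Gclm and Prdx1 are ordered as the marker sum, whereas G6pdx and Keap1 stay near the level of their group (G6pdx 84.1 to 94.2 CPM in SIS3 + TGF-β1 cells). In Ctrl, G6pdx and Keap1 are ordered as the sum and the other members shown are not.

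With the log2 of that marker sum added to the fit as a term, chosen after the data were seen, the comparison of TGF-β1 with Ctrl gave 5 of 10 members called (33.8% of all genes in that fit), all higher: Gclm (0.87 ± 0.08, adjusted p 2.63e-09), Hmox1 (0.45 ± 0.06, 3.68e-07), Nfe2l2 (0.52 ± 0.07, 6.33e-07), Prdx1 (0.16 ± 0.04, 0.00347) and Nqo1 (1.49 ± 0.45, 0.0121). Srxn1 was no longer called (-0.13, adjusted p 0.118). The marker sum ran lower in TGF-β1 libraries (913.2 to 1445.6 CPM) than in Ctrl libraries (1239.7 to 1651.8 CPM), with overlap. For members that run with the sum within groups, the term therefore raises TGF-β1 against Ctrl by construction. It also takes up their spread between replicates, which makes their p-values smaller. These calls are thus no independent support for a rise. In SIS3 + TGF-β1 against TGF-β1, Txnrd1 (-0.19 ± 0.04, adjusted p 0.000641) and Prdx1 (-0.18 ± 0.04, 0.000363) joined G6pdx and Keap1 as lower, which made 5 of 10 called with Srxn1 (45.8% of all genes). In SIS3 + TGF-β1 against Ctrl, 7 of 10 members were called (55.4% of all genes), Hmox1 (0.35 ± 0.05, 3.41e-06) and Nqo1 (1.11, 0.0332) among the 4 higher. With TGF-β1 replicate 3 and SIS3 + TGF-β1 replicate 3 both left out instead, 5 of 10 members were called in TGF-β1 against Ctrl (34.4% of all genes), with Nfe2l2 at 0.45 (adjusted p 6.15e-05), Hmox1 at 0.35 (0.000379), Nqo1 at 1.24 (0.0334) and Gclm higher, and Srxn1 lower. That fit gave 4 of 10 members called in SIS3 + TGF-β1 against TGF-β1 (38.5% of all genes), all lower: Prdx1 at -0.38 (adjusted p 1.85e-05), Txnrd1 at -0.28 (0.00036), Hmox1 at -0.38 (0.000459) and G6pdx. Keap1 (adjusted p 0.0881) and Srxn1 (0.208) were not called there, nor were Gclm (-0.19 ± 0.09, 0.117) and Nqo1 (-0.74 ± 0.45, 0.205). The libraries left out were also chosen after the data were seen. For the 4 called members, SIS3 + TGF-β1 replicate 3 was the highest of its group and TGF-β1 replicate 3 the lowest. Leaving both out therefore lowers their change by construction. It likewise raises TGF-β1 against Ctrl for members lowest in TGF-β1 replicate 3. In SIS3 + TGF-β1 against Ctrl the same fit called 6 of 10 members (54.8% of all genes). Of those that ran with the marker sum, Gclm (0.57 ± 0.09, adjusted p 1.49e-05) and Nfe2l2 (0.32 ± 0.08, 0.00153) were higher and Prdx1 (-0.29 ± 0.05, 8.24e-05) lower, while Hmox1 (-0.03, 0.731), Srxn1 (-0.07, 0.364) and Nqo1 (0.50, 0.415) were not called. Gclm in TGF-β1 against Ctrl and G6pdx in SIS3 + TGF-β1 against TGF-β1 passed in both of these fits. Nqo1 passed the filter on low counts only through the TGF-β1 libraries, so its calls in these fits are no support for a change.

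The genes whose libraries ran most like those of Nfe2l2, by the root mean square difference of centred log2 CPM over the 9 libraries, were Sowahc (0.078), Slc15a3 (0.101), Creg2 (0.103), Ifngr2 (0.104), a chain of the interferon-γ receptor, and Bhlhe41 (0.111), against a median of 0.32 over all tested genes. For Hmox1 they were the serum amyloid gene Saa3 (0.082), Nrp2 (0.084), Smpdl3b (0.104), Ncf1 (0.107), a subunit of the phagocyte NADPH oxidase, and complement factor B, Cfb (0.109), against a median of 0.31. Cfb stood at 77.4, 70.4 and 133.7 CPM in SIS3 + TGF-β1 cells, 88.0, 109.1 and 70.6 CPM in TGF-β1 cells and 64.0, 89.2 and 90.3 CPM in Ctrl cells, the same order of libraries as Hmox1 within both treated groups. None of the other 9 members was among the 5 nearest genes of either.

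Other genes of the pathway were followed in 7 lists that hold 97 genes. Of these 96 were in the table and 91 were tested, and Nfe2l3, Ggt1, Gsta4, Aldh3a1 and Pir had too few counts. In SIS3 + TGF-β1 against TGF-β1, 15 rose, 27 fell and 49 did not pass (46.2% called, against 41.8% of all genes). In TGF-β1 against Ctrl, 18 rose, 15 fell and 58 did not pass (36.3%, against 34.3%). Pooled over the lists, their share called was thus close to that of all genes in both comparisons. By list it ran from 25% to 57.1% in SIS3 + TGF-β1 against TGF-β1 and from 12.5% to 64.3% in TGF-β1 against Ctrl.

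Genes that control NRF2 or share its DNA element changed in both directions. In SIS3 + TGF-β1 against TGF-β1, 5 of 14 tested rose and 3 fell (57.1% called, against 41.8% of all genes). The median log2 change was 0.05, against 0.01 over all genes. Nfe2l1, a sister factor that drives proteasome genes, stood at 413.4, 410.2 and 392.3 CPM in SIS3 + TGF-β1 cells against 151.8, 161.9 and 158.5 CPM in TGF-β1 cells (log2 1.36 ± 0.04, adjusted p 1.1e-12). Sqstm1, the autophagy receptor p62, which sequesters KEAP1, averaged 2236.8 CPM in SIS3 + TGF-β1 cells and 1149.0 CPM in TGF-β1 cells (0.96 ± 0.04, adjusted p 2.03e-10), and Bach2, a repressor related to BACH1, rose by 0.58 ± 0.08. Maff fell (-0.59 ± 0.10, adjusted p 0.00018), while Cul3 (-0.11) and Dpp3 (-0.15) were lower by little and lost their calls without scaling factors (adjusted p 0.617 and 0.209). In TGF-β1 against Ctrl, 4 rose and 5 fell (64.3% called, against 34.3% of all genes). The largest changes were those of 2 small MAF partners. Maff averaged 45.0 CPM in TGF-β1 cells and 10.8 CPM in Ctrl cells (2.06 ± 0.11, adjusted p 6.53e-10), and Mafk 62.4 CPM in TGF-β1 cells and 24.2 CPM in Ctrl cells (1.37 ± 0.06, adjusted p 9.48e-11). Another small MAF gene, Mafg, named here after its values were seen, fell (-0.23 ± 0.06, adjusted p 0.00783). Nfe2l1 (-0.21) and Cul3 (-0.18) fell there too.

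Among genes of glutathione synthesis and use, 3 of 17 rose and 5 fell in SIS3 + TGF-β1 against TGF-β1 (47.1% called, against 41.8% of all genes). Slc7a11, the cystine importer that feeds glutathione synthesis, had 57.9, 56.6 and 83.8 CPM in SIS3 + TGF-β1 cells against 38.7, 43.7 and 29.2 CPM in TGF-β1 cells (0.83 ± 0.14, adjusted p 0.000242), with its libraries in the order of the macrophage marker sum in both groups. It stayed called in both fits that deal with that sum. Oplah, 5-oxoprolinase, rose by 0.92 ± 0.20 and Gsto1 by 0.18 ± 0.05. Chac1, which degrades glutathione, averaged 7.32 CPM in SIS3 + TGF-β1 cells and 17.5 CPM in TGF-β1 cells (-1.26 ± 0.11, adjusted p 3.12e-07). Glrx, glutaredoxin (-0.36 ± 0.04), and the transferase Gstp1 (-0.38 ± 0.04) fell as well. In TGF-β1 against Ctrl, 4 rose and 1 fell (29.4% called, against 34.3% of all genes). Chac1 rose there by 1.48 ± 0.11, with 17.5 CPM in TGF-β1 cells and 6.25 CPM in Ctrl cells, and Gpx4, which reduces lipid peroxides, by 0.21 ± 0.04. Gsr, glutathione reductase, was the one that fell, with 50.2, 50.9 and 48.1 CPM in TGF-β1 cells against 74.6, 71.3 and 78.1 CPM in Ctrl cells (-0.59 ± 0.05, adjusted p 3.31e-07).

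In the thioredoxin and peroxiredoxin list, 2 of 12 rose and 4 fell in SIS3 + TGF-β1 against TGF-β1 (50% called, against 41.8% of all genes). Txnip, which binds and blocks thioredoxin, had 1185.9, 1230.8 and 1029.3 CPM in SIS3 + TGF-β1 cells against 580.1, 506.1 and 569.0 CPM in TGF-β1 cells (1.06 ± 0.06, adjusted p 4e-09). Prdx6, a peroxiredoxin that is recharged by glutathione, rose in SIS3 + TGF-β1 against TGF-β1 (0.29 ± 0.04, adjusted p 1.52e-05) and in TGF-β1 against Ctrl (0.77 ± 0.04, adjusted p 1.67e-10), with means of 276.3 CPM in SIS3 + TGF-β1 cells, 226.5 CPM in TGF-β1 cells and 132.4 CPM in Ctrl cells. Txndc17 (-0.29), mitochondrial Txn2 (-0.25) and Prdx2 (-0.24) fell after SIS3. In TGF-β1 against Ctrl, 3 rose and 1 fell (33.3% called, against 34.3% of all genes). The reductase Txnrd3 was higher by 1.28 ± 0.15 at a low level (5.99 CPM in TGF-β1 cells, 2.45 CPM in Ctrl cells), and Prdx3 changed by -0.19.

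Of the 13 genes of NADPH supply, 0 rose, 7 fell and 6 did not pass in SIS3 + TGF-β1 against TGF-β1 (53.8% called, against 41.8% of all genes), while without scaling factors 2 rose and 6 fell. The median log2 change of the list was -0.21, against 0.01 over all genes. Me1, cytosolic malic enzyme, averaged 8.61 CPM in SIS3 + TGF-β1 cells and 15.2 CPM in TGF-β1 cells (-0.81 ± 0.10, adjusted p 1.25e-05). H6pd, the counterpart of G6pdx in the endoplasmic reticulum, fell by -0.37 ± 0.04 after SIS3 (adjusted p 3.42e-06), and Nnt, the mitochondrial transhydrogenase, by -0.29 ± 0.04. In TGF-β1 against Ctrl, 2 rose and 3 fell (38.5% called, against 34.3% of all genes). H6pd was higher (0.45 ± 0.04, adjusted p 2.92e-07), Pgls was higher by 0.18 ± 0.05, and Rpia (-0.52 ± 0.05) and Idh1 (-0.51 ± 0.11) were lower. The call of Pgls was lost without Ctrl replicate 3 (adjusted p 0.0524).

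In the quinone, carbonyl and drug handling list, 4 of 16 rose and 2 fell in SIS3 + TGF-β1 against TGF-β1 (37.5% called, against 41.8% of all genes). For TGF-β1 against Ctrl, 3 rose and 2 fell (31.2%, against 34.3%). Osgin1, an oxidative stress-induced growth inhibitor, had the largest change of the list with TGF-β1, with 211.5, 223.5 and 184.3 CPM in SIS3 + TGF-β1 cells, 128.1, 123.1 and 131.5 CPM in TGF-β1 cells and 24.5, 25.6 and 22.8 CPM in Ctrl cells. Each step was called (0.69 ± 0.06, adjusted p 1.75e-07, after SIS3, and 2.39 ± 0.07, adjusted p 5.85e-13, for TGF-β1 against Ctrl). Cyb5r1, a cytochrome b5 reductase, had 53.0, 54.9 and 53.9 CPM in SIS3 + TGF-β1 cells against 20.0, 20.6 and 18.8 CPM in TGF-β1 cells (1.44 ± 0.06, adjusted p 1.31e-10). The exporter Abcc4 fell after SIS3 (-0.29 ± 0.07), and in TGF-β1 against Ctrl the exporter Abcc1 (-0.25 ± 0.04) fell. Other calls of this list were near the threshold, among them Cbr1 (0.31, adjusted p 0.0259) and Akr1b3 (-0.13, 0.0322) after SIS3, and Nqo2 (-0.22, 0.0122) and Abcc4 (0.22, 0.0183) for TGF-β1 against Ctrl. Each was lost without at least 1 library: Cbr1 without TGF-β1 replicate 3 (0.0984), Akr1b3 without SIS3 + TGF-β1 replicate 2 (0.163), Nqo2 without TGF-β1 replicate 1 (0.0681) and Abcc4 without Ctrl replicate 1 (0.0585).

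Heme and iron genes counted 1 of 11 higher and 4 lower in SIS3 + TGF-β1 against TGF-β1 (45.5% called, against 41.8% of all genes). For TGF-β1 against Ctrl, 2 were higher and 2 lower (36.4%, against 34.3%). Hmox2, the constitutive heme oxygenase, averaged 60.2 CPM in SIS3 + TGF-β1 cells, 53.8 CPM in TGF-β1 cells and 42.9 CPM in Ctrl cells and was called in both comparisons (0.16 ± 0.04, adjusted p 0.00647, and 0.32 ± 0.04, adjusted p 3.01e-05). The first of these was not called in DESeq2 (adjusted p 0.059). Slc40a1, ferroportin, the iron exporter, averaged 5.46 CPM in TGF-β1 cells and 22.5 CPM in Ctrl cells (-2.04 ± 0.19, adjusted p 3.57e-07). Tfrc, the transferrin receptor, fell in SIS3 + TGF-β1 against TGF-β1 (-0.39 ± 0.08) and in TGF-β1 against Ctrl (-0.67 ± 0.07). Ftl1, ferritin light chain, was lower after SIS3 (-0.23 ± 0.04), as was the heme transporter Slc48a1 (-0.19 ± 0.05), while the heme exporter Flvcr1 rose with TGF-β1 (0.42 ± 0.07). The call of Slc48a1 was lost without scaling factors (adjusted p 0.157) and without SIS3 + TGF-β1 replicate 2 (0.0522). In the list of superoxide, peroxide and methionine sulfoxide genes, 0 of 8 rose and 2 fell after SIS3 (25% called, against 41.8% of all genes). These were Park7 (-0.21) and Sod1 (-0.17), both losing their calls without scaling factors (adjusted p 0.102 and 0.117). There 1 fell with TGF-β1 (12.5%, against 34.3%), Cat, catalase (-0.13, adjusted p 0.0406). This call was lost in 6 of 18 alternatives, among them DESeq2, any 1 Ctrl library left out, and TGF-β1 replicate 3 left out (0.173).

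**Figure D4:**
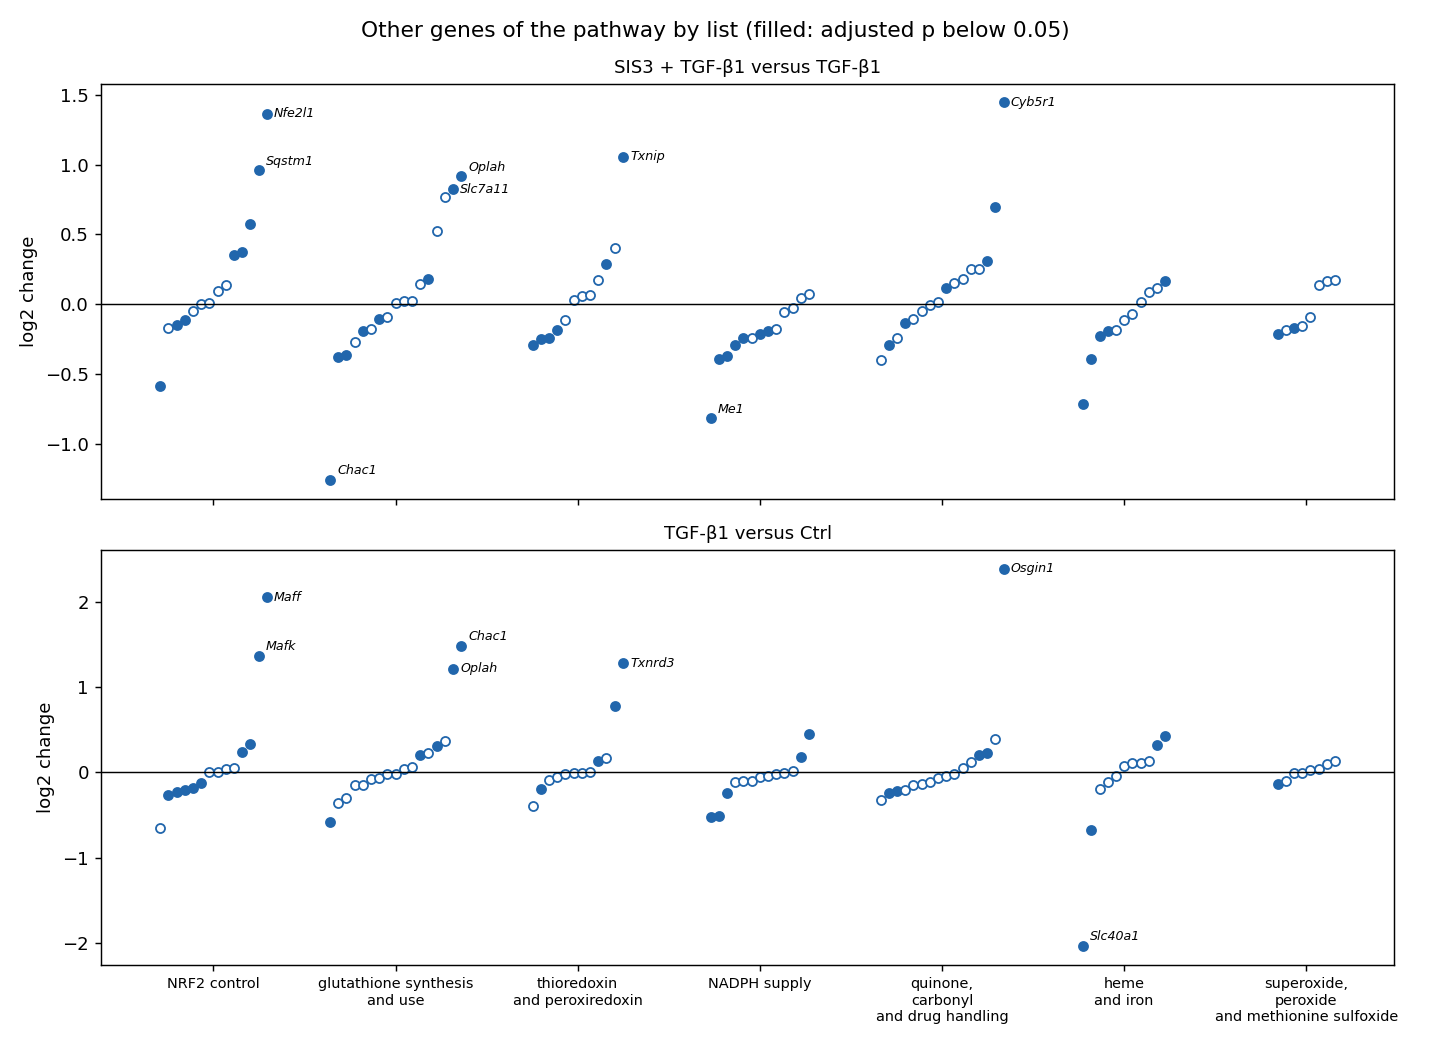
Log2 change (y axis) of the 91 tested pathway genes by list (x axis), sorted within a list, for SIS3 + TGF-β1 against TGF-β1 above and TGF-β1 against Ctrl below; filled points passed an adjusted p of 0.05 (edgeR) and named points changed by 0.8 or more. The NADPH list has 7 filled points after SIS3, all below 0, and Osgin1 (2.39) and Maff (2.06) are the highest with TGF-β1.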

How the data were processed

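Polyadenylated RNA of 9 libraries was read as 100 bp pairs from 1 µg RNA on the DNBseq platform, per the labels. The authors deposited 1 table of expected counts per gene, estimated by their pipeline and not scaled for depth; between 10.2% and 11.1% of the values of a library were not whole. Per the submitters' processing notes, RSEM, Bowtie2, HISAT2, StringTie, Cufflinks and DESeq2 were used with GRCm38 (mm10), in roles and versions not stated there.

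Expected counts were rounded. Genes were filtered with filterByExpr (minimum count 10, minimum total 15) and scaled by TMM, and all 9 libraries were fitted by group with the quasi-likelihood test of edgeR 4.0.16 in R 4.3.3, two-sided, with Benjamini-Hochberg adjustment over 12212 genes and a threshold of 0.05. Degrees of freedom were 6 (residual) plus 9.16 (prior), at a biological coefficient of variation of 4.53%. Intervals are 95% intervals from the standard error and the t distribution at those degrees of freedom. The table gave no symbol for 15 genes. Exon lengths are unions of coding transcripts. No pair of replicates agreed within counting noise (chi-square per gene 1.62 to 5.14). The code was tested on simulated counts. Alternatives used DESeq2 1.42.0 and limma 3.58.1.

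The members and gene lists were chosen with earlier results of these data known. Named beyond the members were, from each pathway list, up to 3 genes with the smallest p in each direction for SIS3 + TGF-β1 against TGF-β1 and up to 2 for TGF-β1 against Ctrl, the treatment checks, and the 5 genes nearest to Nfe2l2 and to Hmox1. No fit or test was made over a list.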

Additional observations from a re-analysis of the deposited data

How the results depend on the processing

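Over 18 alternative settings the 30 results of the members (10 genes in 3 comparisons) gave 536 values, of which 510 kept the call, 15 lost it, 11 gained it and 0 changed sign with a call. Leaving out 1 library at a time, the members called ranged from 1 to 4 for SIS3 + TGF-β1 against TGF-β1, 1 to 3 for TGF-β1 against Ctrl and 4 to 6 for SIS3 + TGF-β1 against Ctrl, and all genes called from 4295 to 5080, 3571 to 4297 and 5875 to 6868. The lowest count of the first, 1, came without SIS3 + TGF-β1 replicate 1.

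Deviations of same-numbered libraries from their group means correlated at -0.201 to 0.147 over 9 pairs, 2 of them over 0.1. Pairs with different numbers spanned -0.213 to 0.209. These correlations cannot tell whether replicate numbers mark shared mice or cultures. With the replicate block, TGF-β1 against Ctrl gave 1 member called, Gclm, since Srxn1 reached an adjusted p of 0.05, and 4803, 3942 and 6346 genes were called in the 3 comparisons.

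With the macrophage marker level as a term, 5 members were called in SIS3 + TGF-β1 against TGF-β1 (45.8% of all genes) and 5 in TGF-β1 against Ctrl (33.8%), where Prdx1 turned to 0.16 (adjusted p 0.00347). With replicate 3 of both treated groups left out, 5 were called in TGF-β1 against Ctrl (34.4% of all genes), and Hmox1 turned to -0.38 (adjusted p 0.000459) in SIS3 + TGF-β1 against TGF-β1. Hmox1 was highest of its group in the SIS3 + TGF-β1 library left out and lowest in the TGF-β1 one. Leaving them out lowers that change by construction. Adding the marker term likewise raises TGF-β1 against Ctrl by construction for members that run with the sum, Prdx1 among them. What sets those libraries apart, and why Prdx1 runs with the sum, were not tested. The count of members with a promoter match was 1 with the longer core.

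Without scaling factors, calls in SIS3 + TGF-β1 against TGF-β1 split into 3690 higher and 1501 lower, in place of 2585 and 2519, and in SIS3 + TGF-β1 against Ctrl into 4222 and 2395, in place of 3542 and 3043. Upper-quartile scaling gave 1807 higher and 2568 lower for TGF-β1 against Ctrl, in place of 2186 and 2004. Counting depth limits Nqo1 most.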
